A study of Mus musculus with 6 samples.

Results

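Genes of glycolysis and of the response to low oxygen were examined in 6 tumours. The set was chosen by name and holds 37 of the 34745 genes in the deposited table: 20 glycolytic members (enzymes, the PFKFB enzymes that tune phosphofructokinase, and transporters of glucose and lactate) and 17 other hypoxia members (Pdk1, regulators of the hypoxia-inducible factor HIF, and HIF targets). All 37 names were found in the table, and all 37 had enough counts to be tested.

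By the labels, the tumours grew under the skin of the right flank of C57BL/6J mice after injection of B16F10 cells, a line from a mouse melanoma. Normal diet (ND) was fed to the hosts of 3 tumours and high cholesterol diet (HCD) to those of the other 3, and RNA of whole tumour tissue was sequenced. Both groups are labelled with the same injected line, so the diet is the only difference the labels give. The labels name neither the age of the mice nor the length of the diet. Nothing in the labels says how the tumours of a diet were kept apart as replicates, so a p-value measures only the spread between these samples. The comparison asks which transcripts of the tumour differ between the diets.

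Glycolysis splits glucose into pyruvate in the cytosol, and tumour cells often turn that pyruvate into lactate even where oxygen is present. HIF is a pair of proteins, an oxygen-sensitive alpha subunit (Hif1a or Epas1) and the stable partner Arnt. When oxygen is plentiful, prolyl hydroxylases of the Egln family mark the alpha subunit for destruction through Vhl. When oxygen is scarce the alpha subunit persists and the pair switches on genes for glucose uptake, glycolysis, vessel growth and collagen modification. The control acts mostly on the protein, which RNA counts do not show.

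Library totals ran from 20351637 to 26228074 counts. Levels are given as CPM, a count as a share of its library total (scaled by a TMM factor), in parts per 1e6. The labelled origin was set against marker genes. Of 11 pigment cell genes, Tyr and Dct had 0 counts in all 6 libraries, and the list summed to between 7.91 and 14.8 CPM per library. In contrast, 10 genes of a hepatocyte list summed to between 6366 and 8463 CPM, most of it from Alb, Afp, Krt8 and Krt18. Hnf4a of this list had 137 to 218 CPM, Apoa1 46.1 to 97.9 CPM and Ttr 6.85 to 15.5 CPM. Apoh, Fgg and Ahsg were at 1.02 CPM or less. The defining pigment genes of a melanoma line were thus absent or near 0, and the samples are called tumours labelled as B16F10. The libraries also differed in skeletal muscle genes, whose sum over 12 genes reached 2160 CPM in ND 2 and 2376 CPM in HCD 1 and lay between 16.1 and 262 CPM in the other libraries. Since these are bulk samples, fewer cells of a type and less RNA per cell cannot be told apart.

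The glycolytic enzymes were among the most abundant transcripts of the tumours. To compare genes, CPM was divided by the length of a gene's merged exons in the GENCODE M21 annotation of GRCm38 (the mm10 build). On this scale Gapdh, the dehydrogenase that yields the first NADH of the pathway (chromosome 6, 125161715 to 125166467), averaged 834 ± 86.3 CPM per kb (SD, n = 6) and ranked 28 among 34344 genes with an annotated length. Ldha, which turns pyruvate into lactate, averaged 514 ± 60.6 and ranked 52. The aldolase gene Aldoa (424 ± 28.6), the phosphoglycerate kinase gene Pgk1 (422 ± 55.8), the pyruvate kinase gene Pkm (413 ± 37.3) and the triose phosphate isomerase gene Tpi1 (409 ± 39.5) followed, with differences between neighbours in that order smaller than their spread over libraries. Pgam1, the phosphoglycerate mutase gene, had 330.4 ± 39.1 CPM per kb. The entry steps lay far lower, with the glucose phosphate isomerase gene Gpi1 at 68.4 ± 8.87, Pfkl at 28.2 ± 3.57 and Hk2 at 25.9 ± 5.14 CPM per kb.

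Most steps with several isozymes were dominated by a single gene. Aldoa made up 97.6 to 98.6% of the summed aldolase level per kb over the libraries, Pkm 98.8 to 99.3% against the liver and red cell form Pklr, and Ldha at least 99.4% against Ldhb and the testis form Ldhc. Genes of glucose handling in liver were near 0: the liver glucose transporter gene Slc2a2 had between 0.114 and 0.434 CPM, and G6pc, the glucose-6-phosphatase gene, had a level above 0 in 1 library, at 0.0486 CPM. A count of 3 was worth 0.114 to 0.146 CPM, so these levels are at or near the floor of the libraries. Among glucose transporters Slc2a1 (GLUT1, found in most cells) made up 74.0 to 81.7% of the summed level per kb, and Slc2a3 (GLUT3, of high affinity) 18.0 to 24.9%.

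**Figure D1:**
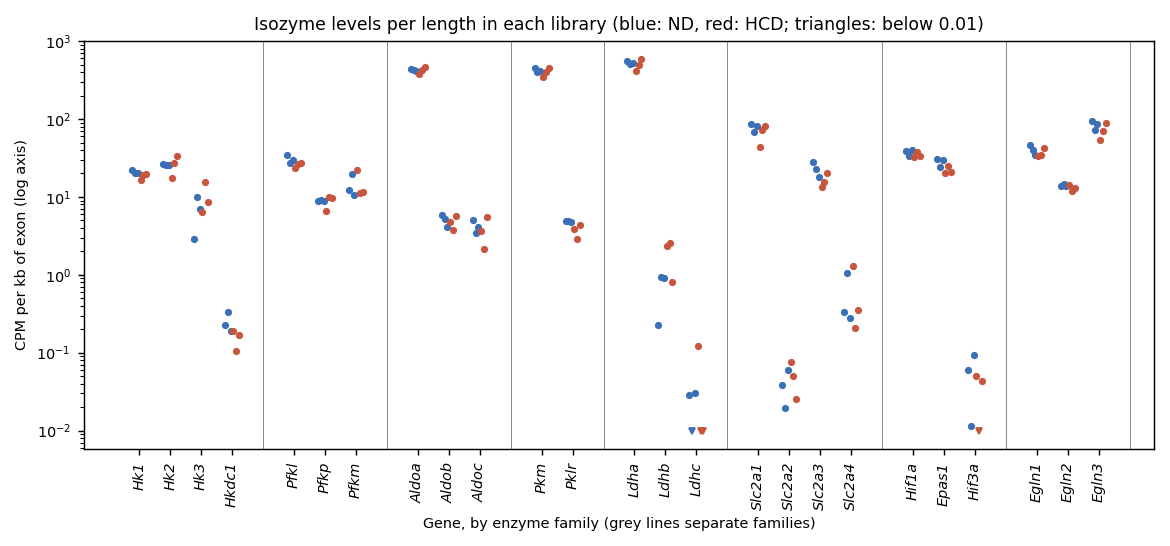
Levels of isozymes in CPM per kb of exon on a log axis, 1 point per library, ND in blue and HCD in red, grouped by enzyme family. Aldoa, Pkm and Ldha stand far above their alternatives in every library, while hexokinase and phosphofructokinase are shared among several genes.

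Hexokinase and phosphofructokinase were shared among isozymes. Hk2, the insulin-responsive hexokinase often high in tumours, made up 42.95 to 53.95% of the summed level per kb of Hk1, Hk2, Hk3 and Hkdc1, and Hk1, the widely expressed form, 30.5 to 43.1%. Hk3, a form of myeloid cells that is not a member, had 5.54% in ND 1 and 24.9% in HCD 2, the libraries with the lowest and the highest macrophage sums (492 and 1599 CPM over 10 genes). Among phosphofructokinases, the liver form Pfkl made up 45.0 to 61.9%, the muscle form Pfkm 21.5 to 42.4% and the platelet form Pfkp 12.5 to 21.0%.

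Pfkm had the pattern of the muscle genes. Its levels in ND 1 to ND 3 were 40.5, 65.4 and 35.9 CPM and in HCD 1 to HCD 3 74.8, 37.4 and 38.9 CPM. Its highest values were thus in ND 2 and HCD 1, the libraries with the highest skeletal muscle sums, while 28 other members had their lowest value in HCD 1. Pgam2, the muscle mutase gene, was at 15.8 and 14.0 CPM in those same libraries and at 1.07 to 3.10 CPM in the others. The part of muscle tissue in these levels was not tested, and the log2 fold change of Pfkm between the diets was 0.09 ± 0.33 SE.

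Between the diets, no member passed the test. The edgeR quasi-likelihood test adjusted over all 15539 tested genes called 0 of 37 members and 0 genes in all (background 0% called), and the smallest adjusted p of any gene was 0.839. At an unadjusted p under 0.05 there were 541 lower and 282 higher genes in all, and the DESeq2 Wald test called 6 genes, none of them a member. The members nevertheless leaned to lower values in HCD tumours: 31 of 37 had a log2 fold change of HCD over ND below 0 (83.8%), where 47% of all tested genes did. The median over the members was -0.17, against 0.01 over all tested genes. At an unadjusted p under 0.05 there were 8 members, all lower in HCD tumours (21.6%, background 3.48%), and none higher (background 1.81%). For 5 members all 3 HCD libraries lay below all 3 ND libraries (13.5%, background 6.36%), and for none did all 3 lie above (background 4.75%). The members share libraries and vary together, so these counts are not independent observations, and a test over 3 against 3 libraries of a single value cannot give an exact permutation p under 0.1.

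**Figure D2:**
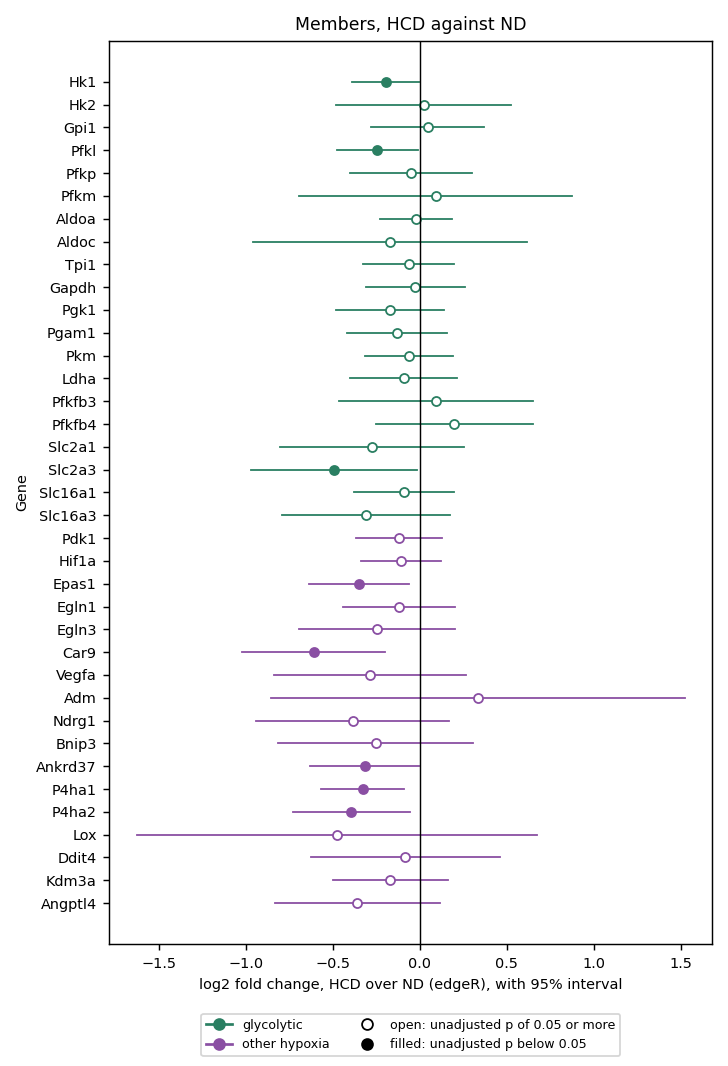
Fitted log2 fold change of each member, HCD over ND, with its 95% interval, glycolytic members in green and other hypoxia members in purple. Filled points mark the 8 members with an unadjusted p under 0.05, all of them left of 0, and most intervals cross 0.

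The arms were set side by side. Of the 20 glycolytic members 15 had a negative log2 fold change (75%, where 47% of tested genes did), with a median of -0.08, and for 1 all HCD libraries lay below all ND libraries (5%, background 6.36%). Of the 17 other hypoxia members 16 were negative (94.1%), with a median of -0.28, and 4 were so separated (23.5%, background 6.36%). Without HCD 1 the medians were -0.00238 and -0.08. A mean over genes of log2 CPM minus the gene mean was taken for each library. The glycolytic mean was 0.12, 0.04 and 0.01 in ND 1 to ND 3 and -0.23, -0.05 and 0.11 in HCD 1 to HCD 3. The hypoxia mean was 0.32, -0.11 and 0.18 in ND 1 to ND 3 and -0.40, 0.03 and -0.02 in HCD 1 to HCD 3. In both arms the libraries of the diets overlapped. The difference of the arms (glycolytic minus hypoxia) had a mean of -0.07 ± 0.19 (SD, n = 3) over the ND and of 0.07 ± 0.14 (SD, n = 3) over the HCD libraries. It was -0.20, 0.14 and -0.17 in ND 1 to ND 3 and 0.17, -0.08 and 0.13 in HCD 1 to HCD 3, so the diets overlapped.

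HCD 1 was the lowest library for most members. It held the lowest value for 28 of 37 members (75.7%), where it was lowest for 16.6% of all tested genes, and ND 1 held the highest for 19 members (51.4%, against 21.0% of tested genes). By arm, HCD 1 was lowest for 15 of 20 glycolytic and 13 of 17 other hypoxia members. The highest library was ND 1 for 7 and HCD 3 for 9 of the 20 glycolytic members, and ND 1 for 12 and HCD 3 for 0 of the 17 other hypoxia members. Without HCD 1 the median over the members was -0.05, with 26 of 37 negative and 3 members at an unadjusted p under 0.05. Without ND 1 it was -0.08, with 2 such members, and without HCD 3 it was -0.26, with 10. There were 4 such members without ND 3, 4 without HCD 2 and 7 without ND 2. Over all genes, 401 were lower and 253 higher at that level without HCD 1, of 15890 tested. Without ND 1 the counts were 224 and 154 of 15982, and without HCD 3 546 and 450 of 15996. Without ND 3 they were 324 and 201 of 15972, without HCD 2 434 and 409 of 15926, and without ND 2 800 and 553 of 15865. Without both muscle-rich libraries, ND 2 and HCD 1, the median over the members was -0.11, with 26 negative. At that level 3 members were then found, where 598 genes in all were lower and 365 higher, of 15526. The medians of the arms in this setting were 0.00239 for glycolytic and -0.20 for other hypoxia members.

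**Figure D3:**
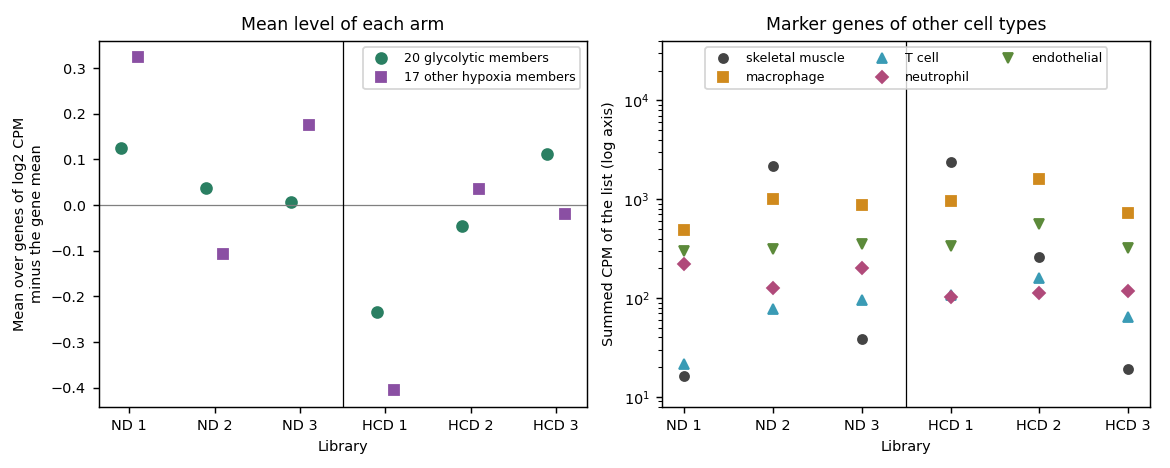
Left, mean log2 CPM minus the gene mean over the 20 glycolytic (circles) and 17 other hypoxia members (squares) in each library. Right, summed CPM of marker genes of other cell types on a log axis. HCD 1 is lowest in both arms, at -0.23 and -0.40, and holds one of the 2 highest skeletal muscle sums.

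Summed marker genes of other cells also differed between these libraries. Neutrophil genes (10 of 10 tested) summed to 222, 126 and 200 CPM in ND 1 to ND 3 and to 101, 114 and 118 CPM in HCD 1 to HCD 3, so the diets did not overlap. T cell genes (10 of 10 tested) summed to 21.7 CPM in ND 1 and to between 64.2 and 159 CPM in the other 5 libraries. Endothelial genes summed to 296 to 348 CPM in ND and 320.9 to 561 CPM in the HCD libraries. Fibroblast genes summed to 4040, 2777 and 3138 CPM in ND 1 to ND 3. Their sums were 3040.5, 3743 and 2560 CPM in HCD 1 to HCD 3, so the diets overlapped. Adipocyte genes summed to 43.3 to 46.3 CPM in ND and 33.6 to 81.7 CPM in the HCD libraries. The part of these cells in the levels of the members was not tested.

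**Figure D4:**
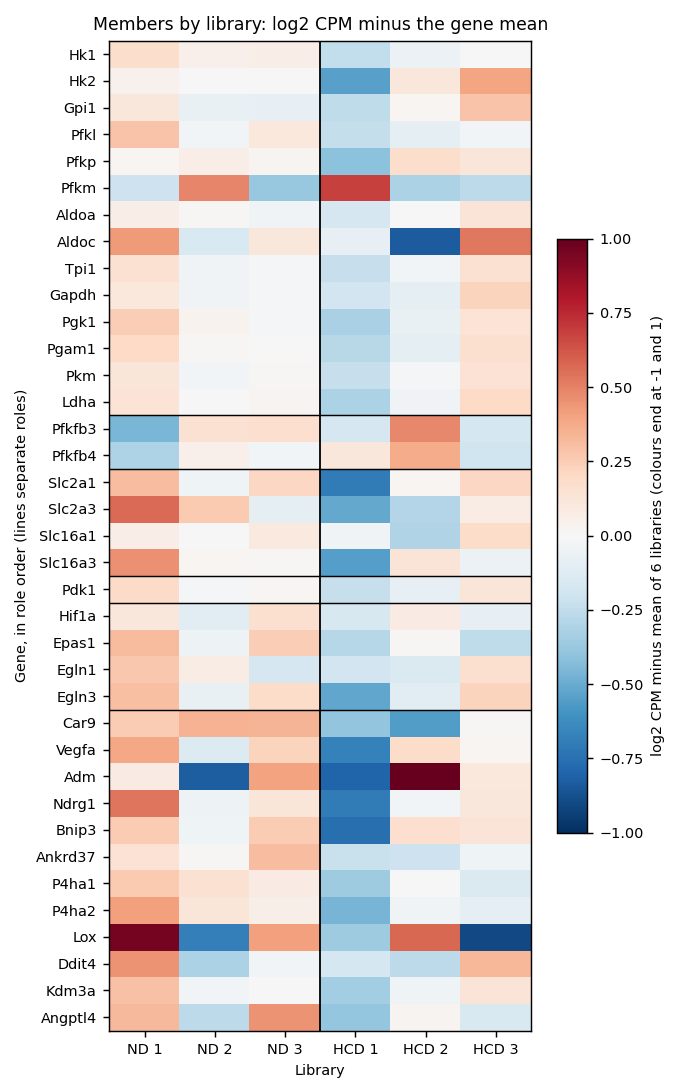
Each member's log2 CPM minus its mean over the 6 libraries, genes in role order and libraries in columns, red above and blue below the gene mean. The column of HCD 1 is blue for all members but Pfkm and Pfkfb4, and Adm and Lox vary most between libraries of a diet.

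Among the 14 glycolytic enzymes, 11 had a negative log2 fold change with a median of -0.06. Hk1 (chromosome 10, 62268855 to 62379908), which commits glucose to the cell by phosphorylation, had 189, 174 and 175 CPM in ND 1 to ND 3 and 141, 161 and 168 CPM in HCD 1 to HCD 3. The diets did not overlap, and the log2 fold change was -0.20 ± 0.08 SE. Hk2, in contrast, had 157, 152 and 151 CPM in the ND libraries and 104, 164 and 199.9 CPM in the HCD libraries, which spanned the ND values on both sides. Its log2 fold change was 0.02 ± 0.21 SE, with a sign that turned under several settings given at the end.

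Pfkl (chromosome 10, 77986947 to 78010083) had 228, 183 and 201 CPM in ND and 159, 175 and 183 CPM in the HCD libraries, and its log2 fold change was -0.24 ± 0.10 SE. HCD 3 and ND 2 lay next to each other, at 183.4 and 183.1 CPM, so the diets overlapped. Without ND 1 its log2 fold change was -0.16. Pfkp had 119, 124 and 119.8 CPM in ND and 88.6, 133 and 129 CPM in the HCD libraries, with HCD 1 alone below the ND range.

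The most abundant enzymes had log2 fold changes near 0. Gapdh had 3693, 3348 and 3380.2 CPM in ND and 3008, 3228 and 4013 CPM in the HCD libraries, with HCD libraries at both ends of the order. Its log2 fold change was -0.02, with a 95% interval of -0.31 to 0.26. Pkm had 2236, 2013 and 2074 CPM in ND and 1750.3, 2037 and 2271 CPM in the HCD libraries, with a log2 fold change of -0.06 and an interval of -0.32 to 0.19. Aldoa had 1289, 1240.0 and 1203 CPM in ND and 1099, 1228 and 1345 CPM in the HCD libraries, with a log2 fold change of -0.02. The brain aldolase gene Aldoc was far lower, at 16.7, 11.2 and 13.5 CPM in ND and 11.8, 7.01 and 18.0 CPM in the HCD libraries, and HCD 2 and HCD 3 held its lowest and its highest value. The signs of Aldoa, Aldoc, Gapdh, Pkm, Tpi1, Ldha, Pfkm and Pfkp turned when 1 library was left out, and that of Gpi1, at 0.05, too. The log2 fold changes of Pfkp and Aldoc were -0.05 and -0.17. Those of Pgk1, Pgam1, Tpi1 and Ldha were -0.17, -0.13, -0.06 and -0.09, and each had HCD 1 as the lowest library. From HCD 1 to the highest library their levels ran from 749.6 to 1117, 536 to 747, 956 to 1246 and 1359.8 to 1938 CPM in that order, and those of Gpi1 from 367 to 533 CPM. Without HCD 1 the log2 fold changes of Pgk1 and Pgam1 were -0.06 and -0.03, and without ND 1 -0.09 and -0.06. Close copies of a few enzymes were counted as genes of their own, the most abundant being Pgk1-rs7 at 54.8 CPM and Gm3839, a copy of Gapdh, at 41.5 CPM, and how reads were shared between them is unknown.

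The PFKFB enzymes set the level of fructose 2,6-bisphosphate, the activator of phosphofructokinase, and were the only role without a negative member. Pfkfb3 had 30.4, 46.6 and 47.2 CPM in ND and 37.3, 58.3 and 37.1 CPM in the HCD libraries, with ND 1 lowest. Pfkfb4 had 7.42, 9.50 and 9.04 CPM in ND and 9.94, 11.9 and 7.995 CPM in the HCD libraries, also with ND 1 lowest. Their log2 fold changes were 0.09 ± 0.24 SE and 0.20 ± 0.19 SE, and the diets overlapped for both. Per kb they were low, at 5.66 ± 1.31 and 1.91 ± 0.324 (SD, n = 6 each).

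All 4 transporters had negative log2 fold changes, with a median of -0.29 and no separation of the diets. Slc2a3 (chromosome 6, 122727809 to 122801640) had 207, 167 and 131 CPM in ND and 98.0, 114 and 147 CPM in the HCD libraries, and its log2 fold change was -0.49 ± 0.20 SE, the largest negative value among the 20 glycolytic members. HCD 3 lay above ND 3, so the diets overlapped, and without ND 1 the log2 fold change was -0.32. Slc2a1 had 306, 240.3 and 285 CPM in ND and 152, 250.04 and 286 CPM in the HCD libraries, with HCD 1 apart from the other 5 libraries and a log2 fold change of -0.27 ± 0.22 SE. The monocarboxylate carriers move lactate out of or into cells. Slc16a1 (MCT1) had 103, 97.5 and 105 CPM in ND and 95.4, 79.4 and 112 CPM in the HCD libraries, and its log2 fold change was -0.09 that turned to 0.03 without HCD 2. Slc16a3 (MCT4, the exporter of glycolytic cells) had a lower level, between 13.5 and 27.0 CPM, and a log2 fold change of -0.31 ± 0.20 SE.

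Pdk1, a kinase that inhibits pyruvate dehydrogenase, had 199, 171 and 176 CPM in ND and 149, 165 and 189 CPM in the HCD libraries. The diets overlapped, with a log2 fold change of -0.12 ± 0.10 SE. It made up 46.2% (HCD 1) to 77.9% (ND 1) of the summed level per kb of the 4 Pdk genes, and Pdk4, a form of muscle and fat oxidation, 14.3% (ND 1) to 42.0% (HCD 1). Pdk4 was highest in HCD 1 and ND 2, at 60.9 and 41.0 CPM, the muscle-rich libraries.

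Of the 4 HIF regulators among the members, Epas1, which encodes HIF-2 alpha (chromosome 17, 86753700 to 86833410), had the largest log2 fold change. It had 174, 135 and 165 CPM in ND and 114, 140.2 and 117 CPM in the HCD libraries, with HCD 2 above ND 2. The log2 fold change was -0.35 ± 0.12 SE (95% interval -0.64 to -0.06). Epas1 is abundant in endothelial cells, and the endothelial list had no member with a negative log2 fold change (0 of 12, median 0.44). The sums of that list in HCD 1 to HCD 3 were 340, 561 and 321 CPM. Only HCD 2 lay outside the ND range of 296 to 348 CPM. The part of endothelial cells in the level of Epas1 was not tested. Hif1a had 229, 196 and 237 CPM in ND and 189.8, 225 and 200.4 CPM in the HCD libraries, with overlapping diets and a log2 fold change of -0.11 ± 0.10 SE. Per kb Hif1a stood above Epas1, at 36.1 ± 3.38 against 25.2 ± 4.38 (SD, n = 6 each), and the third alpha gene Hif3a was near 0. The share of Hif1a in the summed level of the alpha genes was 55.5, 58.0 and 57.5% in ND 1 to ND 3 and 61.1, 60.4 and 61.8% in HCD 1 to HCD 3. This share did not overlap between the diets, and it was looked at after the values of both genes were seen.

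The prolyl hydroxylase genes are themselves HIF targets, and Egln3 is the more inducible of the 2 members. Egln3 had 251, 193 and 231 CPM in ND and 142, 189 and 238 CPM in the HCD libraries, and Egln1 had 168, 146 and 123 CPM against 122, 126 and 155 CPM. Both overlapped between the diets, with log2 fold changes of -0.25 ± 0.19 SE and -0.12 ± 0.14 SE. Per kb Egln3 was the highest of the 3 hydroxylase genes, with 52.6 to 64.3% of their sum, Egln1 had 25.4 to 33.4% and Egln2, which is not a member, 8.94 to 13.9%.

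Of the 12 HIF targets 11 had negative log2 fold changes (91.7%, where 47% of tested genes did), with a median of -0.32. For 4 of them all HCD libraries lay below all ND libraries (33.3%, background 6.36%), and none passed the adjusted test. Car9, a carbonic anhydrase on the cell surface that buffers acid and is among the most hypoxia-specific genes (chromosome 4, 43506966 to 43513729), had the smallest p of all members. It had 11.5, 12.3 and 12.2 CPM in ND and 7.34, 6.58 and 9.75 CPM in the HCD libraries. All 3 HCD values lay below the lowest ND value, and HCD 2, not HCD 1, was lowest. The log2 fold change was -0.61 ± 0.17 SE (95% interval -1.02 to -0.20), with an edgeR p of 0.0101 before adjustment and 0.839 after it. The antisense gene Gm12454 overlaps 9.30% of the exon length of Car9, and without a stated strand setting the reads of that shared part cannot be told apart.

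The prolyl 4-hydroxylase subunits P4ha1 and P4ha2, which stabilise collagen, were both lower in every HCD library than in any ND library. P4ha1 (chromosome 10, 59323296 to 59373304) had 189, 176 and 167 CPM in ND and 124, 158 and 143 CPM in the HCD libraries, and its log2 fold change was -0.33 ± 0.10 SE. P4ha2 (chromosome 11, 54100095 to 54131665) had 105, 85.6 and 82.3 CPM in ND and 57.1, 77.0 and 73.8 CPM in the HCD libraries, and its log2 fold change was -0.39 ± 0.14 SE. HCD 1 was lowest for both. Ankrd37, a small ankyrin repeat gene and HIF target (chromosome 8, 45996902 to 46005707), had 12.2, 11.1 and 13.6 CPM in ND and 9.41, 9.53 and 10.6 CPM in the HCD libraries, and its log2 fold change was -0.32 ± 0.13 SE. It too did not overlap, though 22.7% of its exon length is shared with Lrp2bp on the opposite strand. The edgeR adjusted p of P4ha1, P4ha2, Ankrd37, Hk1, Pfkl, Slc2a3 and Epas1 was 0.839 for each. Without HCD 1, the log2 fold changes were -0.56 for Car9, -0.24 for P4ha1, -0.27 for P4ha2, -0.28 for Ankrd37 and -0.13 for Hk1.

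**Figure D5:**
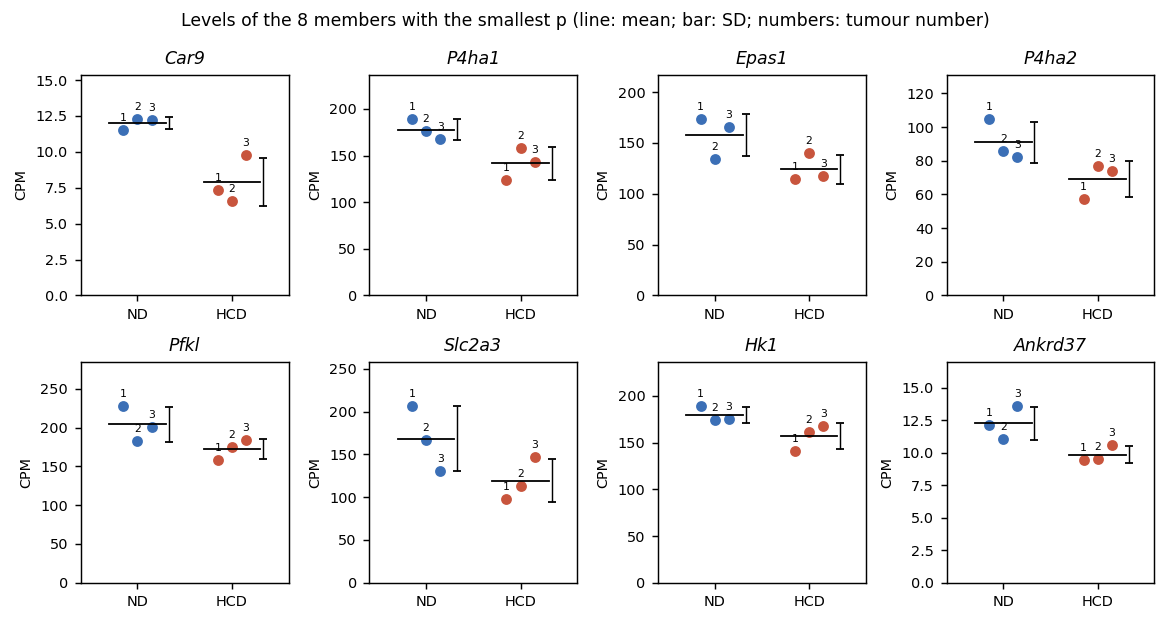
CPM of the 8 members with an unadjusted p under 0.05, 1 point per tumour (numbered), with the mean (line) and SD (bar) of each diet. For Car9, P4ha1, P4ha2, Hk1 and Ankrd37 all HCD points lie below all ND points, and for Epas1, Pfkl and Slc2a3 the diets overlap.

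For the other 8 targets the diets overlapped. Bnip3, a mitophagy receptor gene and the target with the highest level (202 ± 44.7 CPM per kb), had 529.6, 431 and 529 CPM in ND and 264, 500.5 and 486 CPM in the HCD libraries. HCD 1 stood apart, and HCD 2 and HCD 3 lay within the ND range, with a log2 fold change of -0.25 ± 0.24 SE. HCD 1 was also lowest for Vegfa, the growth factor gene of blood vessels, with 253 CPM in HCD 1 and between 368 and 529.8 CPM elsewhere (log2 fold change -0.28 ± 0.23 SE), and for Ndrg1, with 145 CPM in HCD 1 and 226 to 340.4 CPM elsewhere (-0.39 ± 0.23 SE). Ddit4, an inhibitor of mTORC1, had 147, 86.6 and 106 CPM in ND and 95.1, 89.6 and 136 CPM in the HCD libraries, and its log2 fold change was -0.08 that turned to 0.15 without ND 1.

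Kdm3a, a histone demethylase gene, and Angptl4, an inhibitor of lipoprotein lipase, ran from 168 to 261 CPM and from 21.9 to 39.0 CPM with HCD 1 lowest, and had log2 fold changes of -0.17 ± 0.14 SE and -0.36 ± 0.20 SE. Lox, the collagen crosslinking oxidase gene, ran from 33.9 CPM (HCD 3) to 123 CPM (ND 1), with a log2 fold change of -0.48 ± 0.49 SE. Adm, the adrenomedullin gene, was the target with a positive value, 0.33 ± 0.50 SE, from 2.80 CPM in ND 2 to 10.2 CPM in HCD 2, and -0.24 without HCD 2. For Lox and Adm the highest library was 3.64 times the lowest, where the median over tested genes with counts in every library was 1.41 times, over glycolytic members 1.47 and over other hypoxia members 1.77.

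The promoters of the 5 members whose diets did not overlap are shown with that of Ldha, which holds the most matches to the HIF core motif. Each runs from 250 bases before to 50 after a RefSeq start site (GRCm38.p6), 5′ to 3′ on the strand of the gene, and capitals mark ACGTG and GCGTG, the letters that HIF is known to bind, on either strand (CACGT and CACGC when read on the strand shown).
Car9, chr4:43506776-43507075, plus strand: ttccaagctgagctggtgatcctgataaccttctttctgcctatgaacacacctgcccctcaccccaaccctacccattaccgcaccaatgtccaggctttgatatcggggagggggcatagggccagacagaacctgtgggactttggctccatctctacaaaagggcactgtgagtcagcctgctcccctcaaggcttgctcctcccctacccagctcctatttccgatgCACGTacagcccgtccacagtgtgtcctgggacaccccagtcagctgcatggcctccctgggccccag
P4ha1, chr10:59323046-59323345, plus strand: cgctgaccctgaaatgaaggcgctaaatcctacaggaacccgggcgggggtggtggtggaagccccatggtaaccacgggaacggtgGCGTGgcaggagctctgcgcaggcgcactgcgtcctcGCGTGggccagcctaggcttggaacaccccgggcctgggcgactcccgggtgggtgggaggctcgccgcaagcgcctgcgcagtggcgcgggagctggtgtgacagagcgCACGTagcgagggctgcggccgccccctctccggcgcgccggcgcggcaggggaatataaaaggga
P4ha2, chr11:54100674-54100973, plus strand: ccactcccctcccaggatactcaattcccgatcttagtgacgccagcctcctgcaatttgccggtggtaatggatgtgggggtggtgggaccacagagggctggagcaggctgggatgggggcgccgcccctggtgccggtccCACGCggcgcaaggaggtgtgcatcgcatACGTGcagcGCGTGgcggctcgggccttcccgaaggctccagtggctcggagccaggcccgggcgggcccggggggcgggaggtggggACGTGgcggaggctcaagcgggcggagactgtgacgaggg
Ankrd37, chr8:45999801-46000100, minus strand: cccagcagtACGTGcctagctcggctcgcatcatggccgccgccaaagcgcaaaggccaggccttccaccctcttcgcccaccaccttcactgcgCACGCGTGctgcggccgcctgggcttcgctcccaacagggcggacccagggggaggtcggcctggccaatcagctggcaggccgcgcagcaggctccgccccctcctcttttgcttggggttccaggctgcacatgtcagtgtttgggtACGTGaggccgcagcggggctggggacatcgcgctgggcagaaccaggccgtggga
Hk1, chr10:62340372-62340671, minus strand: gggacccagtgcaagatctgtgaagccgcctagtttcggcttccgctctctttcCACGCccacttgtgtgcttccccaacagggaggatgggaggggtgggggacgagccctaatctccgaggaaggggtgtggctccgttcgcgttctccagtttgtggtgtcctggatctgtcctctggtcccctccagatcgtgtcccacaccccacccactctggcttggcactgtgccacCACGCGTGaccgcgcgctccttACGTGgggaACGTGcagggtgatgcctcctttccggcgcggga
Ldha, chr7:46845554-46845853, plus strand: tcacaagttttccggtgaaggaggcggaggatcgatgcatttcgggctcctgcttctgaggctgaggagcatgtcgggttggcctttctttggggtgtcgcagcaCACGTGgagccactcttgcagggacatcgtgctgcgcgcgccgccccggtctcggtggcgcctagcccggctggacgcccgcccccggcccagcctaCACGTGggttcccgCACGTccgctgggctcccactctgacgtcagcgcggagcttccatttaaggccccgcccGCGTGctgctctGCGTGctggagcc

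Car9 has 1 match, CACGT, whose first base lies 18 bases before the start site. P4ha1 has 3 matches, P4ha2 and Ankrd37 have 4 each, Hk1 has 5 at this start site and none at its other listed one, and Ldha has 7. In Ldha 4 of these come from 2 copies of CACGTG, which reads as ACGTG on both strands and is also the letters bound by Myc and USF proteins. The table holds 46 promoters for 32 of the 37 members, and Angptl4, Epas1, Lox, Ndrg1 and Slc2a3 have no entry. ACGTG or GCGTG was found in 36 of these 46 (78.3%), against 43.8% of all 32851 promoters of this length, and ACGTG alone in 58.7% against 19.6%. By arm the share was 79.3% of glycolytic and 76.5% of other hypoxia promoters. Many members were picked as known HIF targets and promoters were not matched for base composition, so the shares describe the list, and a match is not shown to be a bound site.

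Genes of the pathway outside the members were described from lists of names. Of 25 tested further HIF targets 17 had negative log2 fold changes (68%, where 47% of tested genes did), with a median of -0.15, and HCD 1 was the lowest library for 20 of the 25 (80%, against 16.6% of tested genes). In this list 3 genes had an unadjusted p under 0.05, all lower (12%, background 3.48%): the transferrin receptor gene Tfrc (-0.81 ± 0.29 SE), Wsb1 (-0.35 ± 0.13 SE) and the sterol regulator gene Insig2 (-0.23 ± 0.09 SE). The highest by deposited FPKM were Ero1l, an oxidase of the endoplasmic reticulum, with 179 CPM in HCD 1 and 274 to 376 CPM elsewhere, and Fam162a, with 28.3 CPM in HCD 1 and 32.6 to 41.8 CPM elsewhere.

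In the rest of the HIF machinery 6 of 12 tested genes were negative (50%, where 47% of tested genes were), with a median of -0.0003 and values from -0.36 (Cited2) to 0.25 ± 0.21 SE (Arnt2, an Arnt relative). Cited2, a HIF target that competes for the coactivators Ep300 and Crebbp, had an unadjusted p under 0.05, with 251, 174 and 248 CPM in ND and 163, 168 and 193 CPM in the HCD libraries, with a log2 fold change of -0.36 ± 0.15 SE. Vhl had a log2 fold change of 0.00093, with an interval of -0.21 to 0.21, and Arnt of -0.15 ± 0.10 SE. The elongin B gene Tceb2 had the highest deposited FPKM of this list, with 53.3 to 68.5 CPM.

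Of 22 tested further glycolysis genes 6 were negative (27.3%, where 47% of tested genes were), with a median of 0.20. At an unadjusted p under 0.05, 1 was lower (4.55%, background 3.48%) and 1 higher (background 1.81%). For 2 all HCD libraries lay below all ND libraries (9.09%, background 6.36%), and for 2 above (background 4.75%). The list holds Hk3 (log2 fold change 0.63 ± 0.48 SE) and Bpgm, genes known from myeloid and red blood cells, and the macrophage and erythroid lists had medians of 0.38 (2 of 10 negative) and 0.55 (1 of 5 tested genes negative). Erythroid genes summed to 43.2, 133 and 70.5 CPM in ND 1 to ND 3 and to 56.9, 90.5 and 191 CPM in HCD 1 to HCD 3, overlapping between the diets, and the part of these cells was not tested. Bpgm, the mutase gene that makes 2,3-bisphosphoglycerate, had 15.5, 17.4 and 15.8 CPM in ND and 23.9, 19.97 and 25.9 CPM in the HCD libraries, and its log2 fold change was 0.52 ± 0.12 SE. Pklr had 16.0, 16.0 and 15.4 CPM against 12.6, 9.43 and 13.9 CPM, a log2 fold change of -0.40 ± 0.16 SE. Neither overlapped between the diets, and the edgeR adjusted p was 0.839 for both. The enolase genes Eno1 and Eno3 had the highest deposited FPKM of the list, with log2 fold changes of -0.05 and 0.07, and Eno3, the muscle form, was highest in ND 2 (181 CPM) and HCD 1 (142 CPM). In gluconeogenesis 2 of 6 genes were tested, Pck2 and Pcx, with log2 fold changes of 0.05 and -0.02.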

How the data were processed

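Whole tumour RNA of 6 tumours was sequenced from paired-end TruSeq libraries, per the labels' protocols. The table the authors deposited gives, for each gene and tumour, a raw count and an FPKM. Per the submitters' processing notes, CASAVA 1.8, TopHat2 2.0.9, HTSeq, edgeR and the mm10 build were used, with no role or order. Annotation release and strand setting: not given in the sources used here. As deposited, FPKM equalled count over library total and 1 length per gene. That length exceeded the whole gene in GENCODE M21 for 5 members (for Gapdh 8626 bases in a gene of 4753). Levels of different genes were therefore compared by CPM per kb of merged exons, and a gene between libraries by CPM. FPKM served in the limma fits on log2 FPKM and in picking the highest genes of a role or list. That pick depends on the implied lengths.

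Counts were tested with the quasi-likelihood test of edgeR 4.0.16 in R 4.3.3 (TMM factors 0.979 to 1.02, minimum count 10, minimum total 15, prior count 0.125), diet as the only term, with Benjamini-Hochberg adjustment over 15539 genes and a threshold of 0.05. A standard error is the size of the fold change over the square root of F. The step was tested on simulated data. Alternatives used DESeq2 1.42.0 and limma 3.58.1. Close copies were sought among GENCODE transcripts (at least 95% identity over 300 bases). The members and lists were chosen with earlier results of these data known. All members are accounted for, and values in every library are given for those with an unadjusted p under 0.05 or separated diets, the highest 2 per role by FPKM, and isoform pairs. Members described only by range, and shares of isozymes, were chosen after values were seen.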

Additional observations from a re-analysis of the deposited data

How the results depend on the processing

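No member passed the threshold in any of the alternatives run. Over all genes the DESeq2 Wald test called 6 and edgeR without 1 library between 0 and 2 (the 2 without ND 2), and the count was 0 in the other alternatives. The number of negative members stayed within 26 to 33 of 37. With the replicate number of the labels as a block (replicate block), 32 of 37 members were negative with a median of -0.17, and 2 members had an unadjusted p under 0.05 in place of 8. At that level 459 genes in all were lower and 329 higher, of 15539 tested. The correlations of deviations of same-numbered tumours were -0.24, 0.11 and 0.07. Those of unlike numbers ran from -0.54 (ND 2 with HCD 3) to 0.56 (ND 1 with HCD 3). Deviations from the mean of a diet are not independent, so these values cannot decide whether the numbers pair the samples. Leaving out 1 library in turn, the glycolytic median ran from -0.21 to -0.00238, the hypoxia median from -0.40 to -0.08 and the median of all members from -0.26 to -0.05. Without both ND 2 and HCD 1, chosen after seeing the data, the glycolytic median turned to 0.00239, Pfkp to 0.14, Aldoa to 0.0518, Gapdh to 0.0400, Pkm to 0.00525 and Ldha to 0.00771. The sign of Hk2 turned with limma-voom (-0.0266), the replicate block (-0.0242) and limma on log2(FPKM + 1) with and without a filter (-0.0106 each), and with pseudocounts of 0.1 (-0.013) and 5 (-0.00329). Signs that turned when 1 library was left out had these ranges: Hk2 -0.20 to 0.25, Gpi1 -0.0992 to 0.17, Pfkp -0.15 to 0.11, Pfkm -0.31 to 0.40, Aldoa -0.0984 to 0.0475, Aldoc -0.56 to 0.11, Tpi1 -0.16 to 0.0277, Gapdh -0.16 to 0.059, Pkm -0.16 to 0.0305, Ldha -0.22 to 0.0304, Pfkfb3 -0.15 to 0.20, Slc16a1 -0.22 to 0.0329, Adm -0.24 to 0.68 and Ddit4 -0.29 to 0.15. The cause of these turns was not tested. DESeq2 or upper quartile factors, no filter and a stricter filter moved no median by more than 0.01.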

Other observations

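The deposited FPKM and the levels per kb of merged exons gave different orders of the glycolytic enzymes. By the deposited FPKM Pkm averaged 792 and Gapdh 398, whereas per kb of merged exons Gapdh averaged 834 and Pkm 413 CPM per kb. The length implied by the deposited FPKM was 2599 bases for Pkm and 8626 bases for Gapdh, where the merged exons of GENCODE M21 are 5001 and 4133 bases. The implied length exceeded the whole annotated gene for 1431 of 24652 genes. Comparisons of a gene between libraries do not depend on this length.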
